A study of Mus musculus with 4 samples.

Results

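Input DNA is the crosslinked and sheared chromatin of a chromatin immunoprecipitation (ChIP) experiment, sequenced without selection by an antibody. The comparison described here set the input of basal epithelial cells against that of luminal epithelial cells, both from the mammary gland of the mouse, gene by gene, and covered the 23128 of 24548 gene regions that held at least 40 reads over the 4 libraries of the study. The question was which gene regions each cell type's sheared, unselected chromatin yielded in excess. The study sequenced a Foxp1 ChIP library and an input library from each cell type, and Foxp1 is a forkhead transcription factor. Both cell types came from wild-type FVB/N females of 10 to 12 weeks (the per-sample labels spell the strain FBV/N). The basal group used here is 1 basal input library with the antibody given as none, and the luminal group is 1 luminal input library with the antibody given as none. The labels record no treatment, and they do not say how many mice were pooled or how the cells were sorted.

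Input chromatin is not a uniform sample of the genome. Open, nucleosome-poor chromatin breaks more easily than compact chromatin during sonication, so it can be over-represented among the short fragments that enter a library, and base composition also affects how well a fragment is amplified. Basal cells form the outer, contractile and stem-cell-containing layer of the mammary ducts and rest on the basement membrane. Luminal cells line the duct, are joined by tight junctions, and include hormone-sensing cells and the progenitors of secretory cells.

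Reads in gene regions numbered 3080114 in the basal input and 4201459 in the luminal input, and the median tested gene had 144 and 192 reads. Genes of the Y chromosome, 49 in the table, held 2 and 3 reads in all and none was tested, in accord with female cells. Reads of DNA do not measure expression, so marker genes cannot check the sorting here. Since each group is 1 library, no spread between mice or preparations could be estimated, no test was made, and every interval covers counting error only. Short and long genes had similar counts: the median sum over both inputs was 321 reads in the autosomal decile of shortest genes (28 to 1006 bp) and 366 in that of the longest (103431 to 2270506 bp). Which stretch of a gene was counted is not stated, so gene positions given here locate the gene and not the span that the reads cover. PCR copies are not independent molecules, so the intervals may be too narrow.

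A gene region was called when the 2 scaled counts differed by at least 1.5-fold and the exact 99% interval of their ratio excluded 1. By this rule 164 of 23128 regions (0.709%) were higher in basal input and 107 (0.463%) were higher on the luminal side, so that 60.5% of the calls were on the basal side. That split depended on how the libraries were scaled: when the ratios were centred on the olfactory receptor genes, the calls were 13 and 899, and 1.43% were basal. It also turned with the fold required, since at 2-fold or more there were 16 basal and 21 luminal calls (43.2% basal). At the threshold itself, Olfr1502 (185 basal and 168 luminal reads, log2 0.59) was the last basal call and Ccl8 (153 and 139 reads, log2 0.58) the next gene not called. On the luminal side Ap4s1 (64 and 131 reads, log2 -0.59) was the last call and Gnai2 (140 and 286 reads, log2 -0.58) the next gene not called. The ratios of most genes were close to equality, with 5th and 95th percentiles of log2 -0.40 and 0.45.

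**Figure D1:**
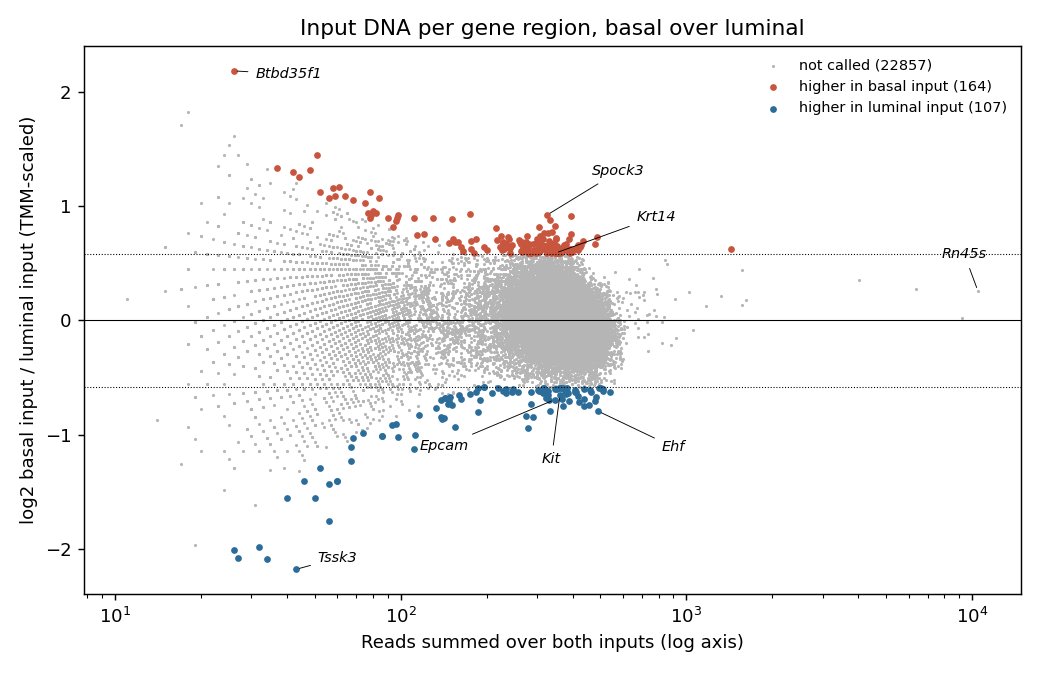
Each point is 1 gene region, placed by its reads summed over both inputs (log axis) and by its log2 ratio of basal over luminal input after TMM scaling. The 164 basal and the 107 luminal calls lie at or beyond the dotted lines at 1.5-fold, and most have log2 ratios between -1 and 1, with Btbd35f1 (2.18) and Tssk3 (-2.18) at the ends.

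Promoter sequences of 4 called genes are shown as examples, because they belong to lists described here: Epcam to the luminal junction genes, Kit to the luminal progenitor markers, Col17a1 to the basal markers and Vmn1r71 to the vomeronasal receptors. The first 3 of these lists hold few of the calls. Each is the run of 250 bases before the annotated start, from RefSeq on GRCm38.p6, written 5′ to 3′ on the gene's strand with CG dinucleotides in capitals. Epcam lies at chr17:87635729-87635978 (plus strand), Kit at chr5:75574737-75574986 (plus strand), Col17a1 at chr19:47692043-47692292 (minus strand) and Vmn1r71 at chr7:10749539-10749788 (minus strand).
Epcam: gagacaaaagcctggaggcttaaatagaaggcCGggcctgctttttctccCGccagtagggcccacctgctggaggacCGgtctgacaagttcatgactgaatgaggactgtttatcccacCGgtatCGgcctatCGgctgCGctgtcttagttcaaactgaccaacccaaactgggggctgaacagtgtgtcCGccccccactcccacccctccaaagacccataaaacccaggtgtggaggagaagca
Kit: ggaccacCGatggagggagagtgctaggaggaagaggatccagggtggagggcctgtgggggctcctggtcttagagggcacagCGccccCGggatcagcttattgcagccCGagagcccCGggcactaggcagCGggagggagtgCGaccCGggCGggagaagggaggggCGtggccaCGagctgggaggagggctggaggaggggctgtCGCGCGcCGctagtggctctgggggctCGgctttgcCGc
Col17a1: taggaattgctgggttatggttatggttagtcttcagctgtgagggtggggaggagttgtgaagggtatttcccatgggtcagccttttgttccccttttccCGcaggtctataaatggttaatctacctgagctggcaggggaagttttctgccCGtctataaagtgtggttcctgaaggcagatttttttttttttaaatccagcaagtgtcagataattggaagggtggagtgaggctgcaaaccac
Vmn1r71: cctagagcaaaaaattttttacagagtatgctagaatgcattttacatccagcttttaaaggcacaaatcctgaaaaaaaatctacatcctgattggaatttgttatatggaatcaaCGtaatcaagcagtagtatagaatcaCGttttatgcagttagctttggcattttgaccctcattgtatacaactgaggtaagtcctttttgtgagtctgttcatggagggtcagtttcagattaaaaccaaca
G and C made up 56.4% of the Epcam stretch, with 8 CG dinucleotides, and 70.8% of Kit, with 17. They made up 46.0% of Col17a1 and 34.8% of Vmn1r71, with 2 CG dinucleotides in each. These are examples and do not describe the calls as a whole.

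The regions higher in luminal input included several named genes of epithelial cells. Ehf, an ETS-family transcription factor of glandular epithelia and a luminal progenitor marker (Entrez gene 13661, chromosome 2, 103263431 to 103303275, GRCm38), had 146 reads in basal input and 345 in luminal input. The luminal input was thus 1.73-fold higher for Ehf (99% interval 1.34 to 2.26). Sbsn, the gene of the epithelial protein suprabasin, had 77 and 201 reads, 1.92-fold (1.35 to 2.75). The GTPase effector gene Rab11fip1, which acts in membrane recycling, had 133 and 305 reads, 1.68-fold (1.29 to 2.22). These 3 regions were well covered in both libraries, and their lower bounds were 1.29-fold or more.

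Further luminal calls are given here by what their genes encode, not by rank. Arhgef38, a guanine nucleotide exchange factor gene, had 139 basal and 316 luminal reads, 1.67-fold (1.28 to 2.19). Tmprss2, a membrane-bound serine protease gene, had 120 and 267 reads, 1.63-fold (1.23 to 2.19). Pkp2, which encodes the desmosomal protein plakophilin 2, had 153 and 331 reads, 1.59-fold (1.23 to 2.06). Epcam, the epithelial adhesion molecule whose high level marks luminal cells in sorting, belonged to the same group. It had 108 and 238 reads, 1.62-fold (1.20 to 2.21), on chromosome 17 from 87635979 to 87651127. Kit, the stem cell factor receptor of luminal progenitors (chromosome 5, 75574987 to 75656722), had 115 and 246 reads, 1.57-fold (1.17 to 2.12). The secreted inhibitor gene Wfdc18 had 121 and 257 reads, 1.56-fold (1.17 to 2.09).

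Other regions in the luminal set hold genes of more general cell functions or of other tissues. Osbpl2, an oxysterol-binding protein gene, had 148 and 329 reads, Atxn1, a transcriptional regulator gene, 130 and 290, and Trim6, a ubiquitin ligase gene, 112 and 257. Their log2 ratios were -0.71, -0.71 and -0.75. Epb41 (138 and 302 reads, log2 -0.68), a membrane skeleton gene, and Letm2 (99 and 234, log2 -0.79), a mitochondrial protein gene, completed the better covered regions among the 15. The largest luminal ratios rested on few reads: the testis kinase gene Tssk3 had 6 and 37, the Egr corepressor gene Nab2 5 and 29, and the acrosomal gene Acrv1 10 and 46. The 99% interval of Tssk3 ran from 1.52-fold to 19.0-fold higher in luminal input, against 1.34 to 2.26 for Ehf. Tssk5, another testis kinase gene, had 80 and 195 reads, 1.79-fold (1.27 to 2.56).

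The regions higher in basal input included genes known from neurons, chemosensory receptor genes and microRNA genes among the 15 with the highest lower bound. Spock3, the gene of a testican proteoglycan expressed in brain (Entrez gene 72902, chromosome 8, 62951000 to 63357101), had 189 basal reads and 136 luminal reads. The basal input was 1.89-fold higher for Spock3 (1.41 to 2.55). Khdrbs2, an RNA-binding protein gene of neurons, had 192 and 142 reads, 1.84-fold (1.38 to 2.47). Fgf14, whose protein regulates sodium channels in neurons, had 218 and 176 reads, 1.69-fold (1.29 to 2.21). Each of these 3 genes had more basal than luminal reads although the basal library was the shallower.

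Receptor genes of the vomeronasal organ and the nose made up 4 of the 15 basal regions with the highest lower bound. Vmn1r71 had 196 and 151 reads, 1.77-fold (1.33 to 2.36), Vmn1r178 192 and 159, 1.65-fold (1.24 to 2.18), and Vmn1r76 191 and 159, 1.64-fold (1.24 to 2.17). Olfr309 had 211 and 176 reads, 1.63-fold (1.25 to 2.14). These genes belong to families with near-identical copies, and the sources used here do not give how reads that match several copies were counted. The serpin gene Serpina3i, of a cluster of similar copies, had 268 and 220 reads, 1.66-fold (1.31 to 2.11). Fam196a (172 and 133 reads, log2 0.82) and the phosphatase gene Dusp21 (182 and 146, log2 0.76) also belonged to the 15. Btbd35f1 (20 and 6 reads, log2 2.18) and Fam217b (34 and 17, log2 1.45) had the largest ratios and the fewest reads.

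**Figure D2:**
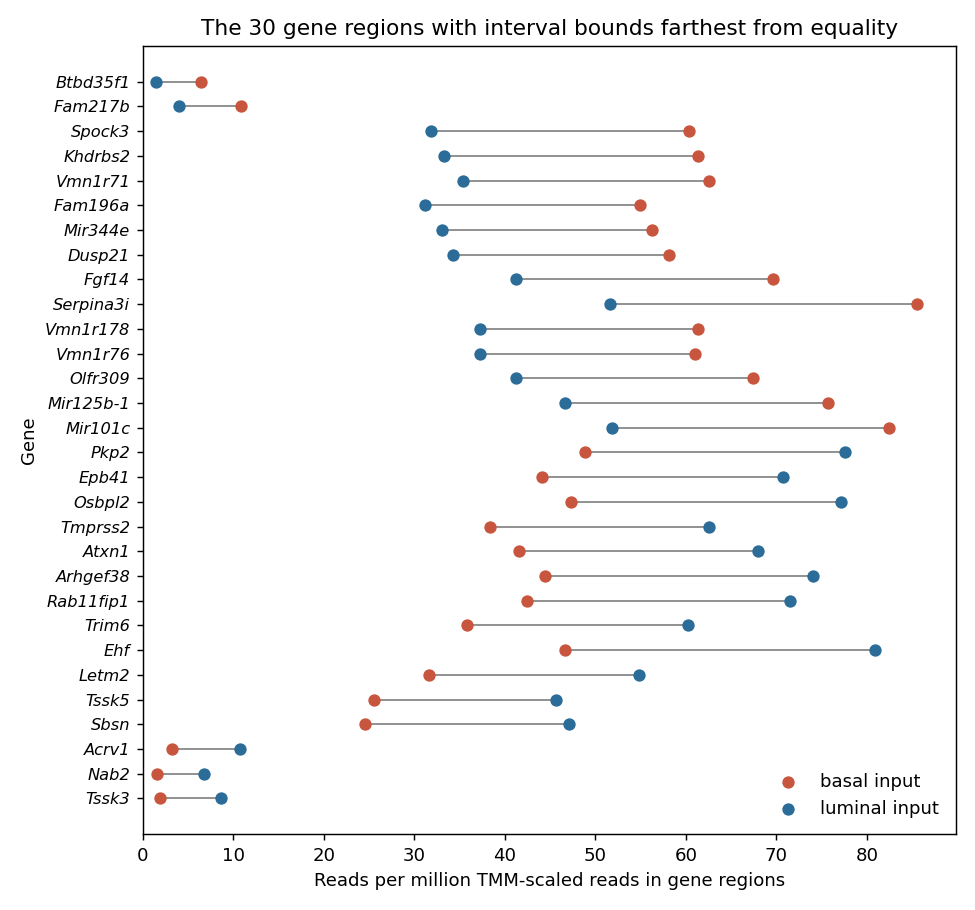
Counts scaled to library size (CPM with TMM factors) in basal input (red) and luminal input (blue) are shown for the 15 calls on each side whose interval bound was farthest from equality, ordered by ratio, with 1 library per colour and no error bar. Spock3 stood at 60.4 in basal and 31.9 in luminal input and Ehf at 46.6 and 80.9, while Btbd35f1, Fam217b, Acrv1, Nab2 and Tssk3 lie at or below 10.9 in both.

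The regions of 3 microRNA genes were among the 15 on the basal side, and their mature RNAs are shown to identify them, with the seed (bases 2 to 8) in capitals, from RefSeq on GRCm38.p6.
mmu-miR-125b-5p (Mir125b-1): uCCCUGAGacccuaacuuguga
mmu-miR-344e-3p (Mir344e): gAUAUAACcaaagccugacuau
mmu-miR-101c (Mir101c): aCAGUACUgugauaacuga
The 3 seeds differ from each other. Mir125b-1, a conserved microRNA gene with many roles in epithelial and blood cells (chromosome 9, 41581926 to 41582002), had 237 basal and 199 luminal reads, 1.62-fold (1.26 to 2.09). Mir344e had 176 and 141 reads, log2 0.77, and Mir101c 258 and 221, log2 0.67. In all, 14 of 877 tested microRNA genes were basal calls (1.60%) and 3 luminal calls (0.342%), against 0.709% and 0.463% of all tested genes, with a median log2 ratio of 0.03. Counts near so short a gene describe the surrounding DNA and not the microRNA.

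Basal markers stood slightly to the basal side and had 2 calls among 33 tested members (6.06%, against 0.709% of all tested genes). Krt14, the basal keratin (chromosome 11, 100203162 to 100207510), had 182 basal and 165 luminal reads, log2 0.59 (99% interval 0.18 to 1.0), at the limit of the rule, and was not called with DESeq2 size factors (0.58). Col17a1, the hemidesmosomal collagen (chromosome 19, 47646341 to 47692042), had 149 and 126 reads, 1.61-fold (1.17 to 2.22). Of the list, 24 members had a ratio above 0 and 9 below, with a median log2 of 0.17, where all tested genes had -0.00 and 49.9% above 0. The highest of those not called were the basal keratin genes Krt17, with 173 and 161 reads (log2 0.55), and Krt5, with 188 and 185 reads (log2 0.47, 99% interval 0.08 to 0.86). The lineage regulator gene Trp63 (180 and 204 reads, 0.27), the smooth muscle actin gene Acta2 (248 and 275, 0.30) and Vim (211 and 240, 0.26) had intervals that included equality. Lowest in the list were the contractile kinase gene Mylk (131 and 204 reads, -0.19), the caveolin gene Cav1 (150 and 233, -0.19) and the integrin gene Itga6 (173 and 262, -0.15). Tns1 was not tested because it held fewer than 40 reads.

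Markers of luminal progenitors stood on the luminal side throughout. All 20 members had a ratio below 0, against 50.1% of all tested genes, with a median log2 of -0.24, and 3 (Ehf, Kit and Wfdc18) were called higher in luminal input, against 0.463% of all genes. The transcription factor gene Sox10 had the lowest ratio, -1.32, but only 10 and 34 reads, and it was not called. Cyp24a1, the vitamin D hydroxylase gene, had 32 and 75 reads (-0.78) and was not called either. Elf5, the regulator of alveolar progenitors, was near equality with 160 and 232 reads (-0.09), as were the integrin gene Itga2 (192 and 278, -0.09), Aldh1a3 (157 and 219, -0.03) and Rspo1 (130 and 180, -0.02). The tetraspanin gene Tspan8 had 165 and 275 reads (-0.29).

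Mature, hormone-sensing luminal markers had a smaller shift and no call in either direction. Of 22 members, 17 had a ratio below 0 and 5 above, and the median log2 was -0.16. Cited4, a transcriptional coregulator gene, was lowest with 119 and 243 reads (-0.58), just inside the 1.5-fold limit, followed by the prolactin receptor gene Prlr (143 and 257, -0.40) and the pioneer factor gene Foxa1 (137 and 238, -0.35). The estrogen receptor gene Esr1 had 179 and 269 reads (-0.14), the progesterone receptor gene Pgr 179 and 234 (0.06), and Gata3, a luminal transcription factor gene, 62 and 77 (0.13). Highest were Cited1 (13 and 10 reads, 0.82), the RANK ligand gene Tnfsf11 (135 and 138, 0.41) and Msx2 (172 and 204, 0.20).

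Luminal keratins and epithelial junction genes had the lowest median of the 15 lists chosen by name, -0.31. Of 25 members, 24 were below 0, 9 had a 99% interval wholly on the luminal side, against 2.53% of all tested genes, and 1, Epcam, also passed 1.5-fold. Krt19 had 127 and 251 reads (-0.54), Krt8 176 and 317 (-0.40, interval -0.76 to -0.05) and its partner Krt18 145 and 256 (-0.37). The claudin genes, which seal tight junctions, had similar values: Cldn7 had 158 and 318 reads (-0.56) and Cldn3 144 and 287 (-0.55), while Cldn1 (160 and 220, -0.01) was at equality. Tjp3 and Muc1 were lower still at -0.79 and -0.59, but on 14 and 33, and 18 and 37 reads. St14, a membrane protease gene, was the 1 member above 0, with 200 and 256 reads (0.09).

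**Figure D3:**
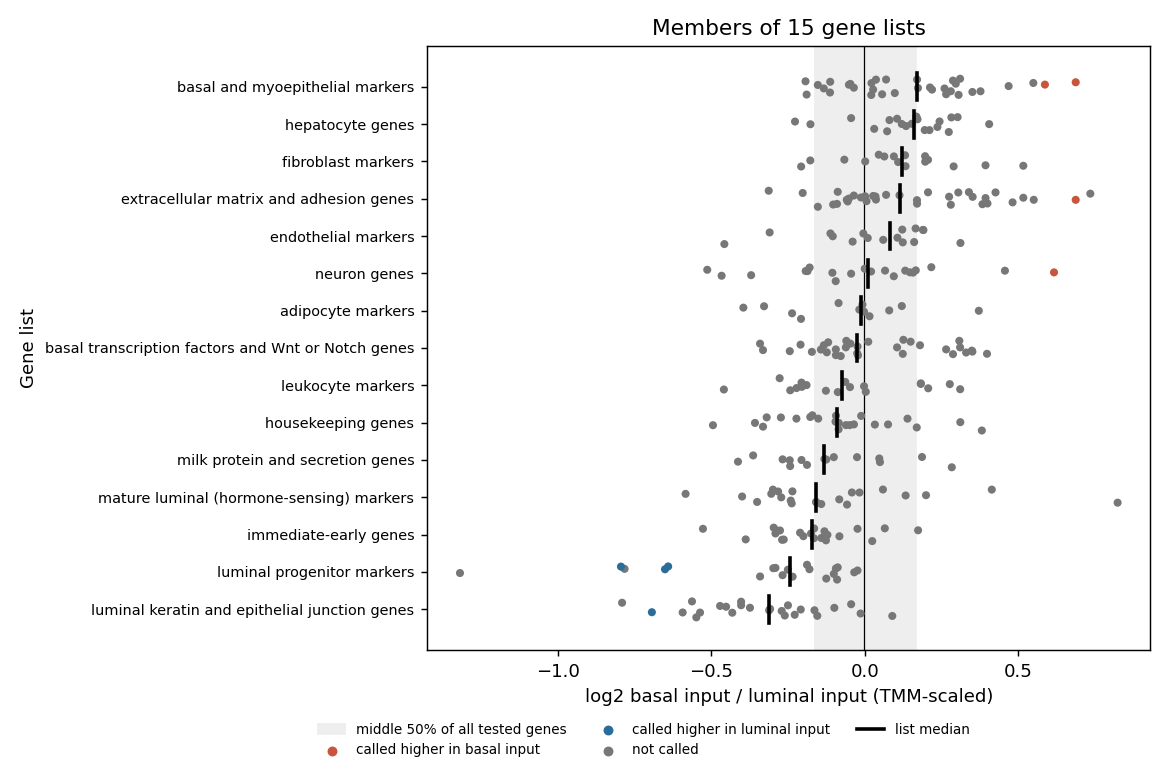
Each point is a tested member of 1 of 15 gene lists, placed by its log2 ratio of basal over luminal input, with a black bar at the list median and a grey band for the middle 50% of all tested genes. The medians run from -0.31 in luminal keratin and junction genes and -0.24 in luminal progenitor markers to 0.17 in basal markers, and hepatocyte genes, at 0.16, lie next to the basal markers.

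Lists of tissues other than the epithelium were also off centre. Hepatocyte genes, markers of liver, had a median of 0.16 with 17 of 20 above 0 and no call. Their highest were Ahsg (106 and 109 reads, 0.41), Cps1 (163 and 180, 0.30) and Ambp (125 and 140, 0.28). The basal marker median of 0.17 was thus close to that of a list with no role in the gland. Fibroblast markers had a median of 0.12, with 13 of 16 above 0 and no call. Their highest were the collagen genes Col3a1 (208 and 198 reads, 0.52) and Col1a2 (163 and 169, 0.39). The other cell types had medians nearer to 0: endothelial 0.08, neuron 0.01, adipocyte -0.01 and leukocyte -0.08.

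Extracellular matrix and adhesion genes had a median of 0.11, with 24 of 35 above 0, 5 of 35 intervals wholly on the basal side (694 of 23128 for all tested genes) and 1 call, Col17a1 (2.86%, against 0.709% of all). The basement membrane collagen gene Col4a1 had the highest ratio, 0.74, on 44 and 36 reads, and was not called. The fibrillar collagen gene Col5a2 had 185 and 172 reads (0.55), while the integrin gene Itgav (201 and 315, -0.20) was on the luminal side. All 44 tested collagen genes had a median of 0.14 with 31 above 0 and the same 1 call (2.27%). Basal transcription factors and Wnt or Notch genes had a median of -0.02 and no call, from Myocd (150 and 155 reads, 0.40) down to the Notch effector Hey1 (175 and 302, -0.34).

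Immediate-early, housekeeping and milk protein genes had medians below 0 and no call in either direction. Immediate-early genes, which respond to stimulation within minutes, had a median of -0.17 with 19 of 22 below 0 and 2 intervals wholly on the luminal side. Myc had 164 and 322 reads (-0.53), Fosl2 184 and 328 (-0.39) and Junb 202 and 338 (-0.30), and at the other end stood Egr3 (188 and 227, 0.17) and Klf4 (169 and 220, 0.07). Housekeeping genes had a median of -0.09 with 18 of 24 below 0, close to the leukocyte markers at -0.08. Ldha, a glycolysis gene, was lowest with 149 and 286 reads (-0.49), and Actb (203 and 286, -0.05) and Gapdh (159 and 231, -0.09) were near equality, while Tbp (22 and 23, 0.38), Sdha (41 and 45, 0.31) and Gusb (180 and 218, 0.17) were highest. Milk protein and secretion genes had a median of -0.13, with 11 of 15 tested members below 0. The lipid droplet gene Plin2 (172 and 312, -0.41) was lowest, and the casein gene Csn2 (185 and 207, 0.28) was highest.

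Olfactory receptors, the largest of the families examined, gave the most basal calls by number, though not the highest share. They had 28 of 1108 tested members called higher in basal input (2.53%) and none on the luminal side, against 0.709% and 0.463% of all genes. Their median log2 ratio was 0.21, with 971 above 0 and 137 below. Vomeronasal receptor and defensin genes, which include clustered copies, had 12 of 337 called (3.56%), with a median of 0.23. Taste receptor genes had 2 of 36 called (5.56%), Tas2r102 and Tas2r113, named after their values were seen, and a median of 0.32. The keratin-associated protein genes of hair, also in tight clusters, had 3 of 53 called (5.66%) and a median of 0.15. Keratin genes had a median of 0.13 with 35 of 53 above 0 and 1 call, Krt14 (1.89%). The families with a median below 0 included ribosomal protein genes at -0.06, histone genes at -0.07, solute carrier genes at -0.06, Zfp genes at -0.04 and Hox genes at -0.13.

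The signs of the small medians depended on the scaling, because centring on the olfactory receptors moved the median of all genes to -0.21. Under that centring the basal marker median was -0.042 and lay 0.17 above that of all genes, as it did in the main scaling; the order of the lists was the same, since a scaling shifts every ratio alike. The other scalings moved the median of all genes by 0.01 or less. No called gene could change sign under any alternative, since every shift in scaling was smaller than the 1.5-fold limit of a call. Of the named basal calls, 12 were under 1.5-fold with the olfactory centring, among them Fgf14 (0.54), Serpina3i (0.52), Mir125b-1 (0.49), Col17a1 (0.48) and Krt14 (0.38). That centring lowers every ratio, so it could remove basal calls but no luminal call. All 107 luminal calls thus remained, and Krt8 (-0.62), Krt18 (-0.59) and Krt19 (-0.75) joined them.

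The ratio varied with the base composition of the gene start. Among 15767 protein-coding genes outside chromosome 18 with a RefSeq promoter of 300 bases, the decile with the lowest G and C content (12.3 to 40.3%) had a median log2 ratio of 0.20, and 40 of 1577 were called higher in basal input (2.54%). The median was 0.06 in the next decile and between -0.03 and -0.07 from 51% G and C upward. Genes called higher in basal input had a median G and C content of 46.3% (111 of 129 with an entry), against 57.0% for all. For luminal calls 74 of 93 genes (79.6%) had an entry, short of the 80% set as a minimum, and the marker lists also fell short, so no composition is compared for these sets. Within each of 5 classes of G and C content, olfactory receptors had higher medians than other protein-coding genes. Below 35% G and C the medians were 0.24 in 450 receptor genes and 0.20 in 199 others, and from 35 to 40% 0.22 in 256 and 0.17 in 518. From 40 to 45% they were 0.15 in 138 and 0.09 in 1064, from 45 to 50% 0.12 in 60 and 0.02 in 1640, and from 50% upward 0.04 in 25 and -0.05 in 11417. That last class spans 50 to 100% G and C, so receptors and other genes are not matched in composition within it.

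**Figure D4:**
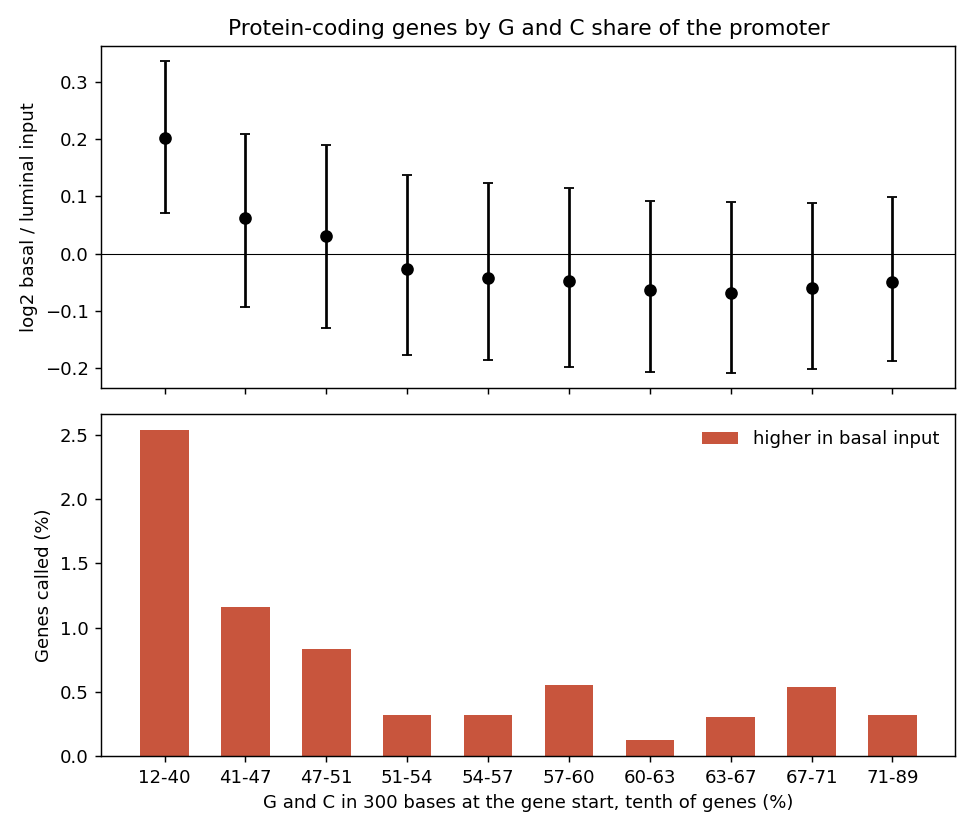
Protein-coding genes are divided into deciles by the G and C content of 300 bases at the gene start. Points in the upper panel are medians of the log2 ratio of basal over luminal input with bars from the 25th to the 75th percentile, falling from 0.20 in the lowest decile to -0.07 at 63.3 to 66.7%, and bars in the lower panel are the share called higher in basal input, 2.54% in the lowest decile.

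A comparison of promoter motifs was void, since 117 of the 164 basal calls and 84 of the 107 luminal calls had a promoter entry, under the 80% minimum on both sides, so no motif share is given.

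The Foxp1 ChIP libraries of the same cell types, gave a further reading of the called regions. The calls compare the 2 input counts, and the ChIP libraries entered them through the filter and the shared scaling factors. With TMM factors of the inputs alone the 2 shares given next were 63.6% for basal and 78.5% for luminal calls, and with the filter on the inputs alone 63.6% and 78.6%. Each was compared as basal ChIP over luminal ChIP. Of the 107 regions higher in luminal input, 84 (78.5%, exact 95% interval 69.5 to 85.9%) were also lower in basal than in luminal ChIP, against 49.5% of all tested genes, and the median ChIP log2 ratio was -0.29. Of the 164 regions higher in basal input, 104 (63.4%, 55.5 to 70.8%) were also higher in basal ChIP, against 50.5% of all, with a median of 0.14. Among olfactory, vomeronasal and defensin genes, 24 of 40 basal calls (60.0%) were above 0 in ChIP, close to the 58.6% of all 1445 tested. Among other genes, 80 of 124 basal calls (64.5%) were above 0 in ChIP. The luminal regions with 200 or more input reads had the same side in 51 of 61 cases (83.6%), and those with fewer reads in 33 of 46. On the basal side the counts were 80 of 120 (66.7%) and 24 of 44 (54.5%). The exact 95% interval of the latter, 38.8 to 69.6%, includes the 50.5% of all tested genes. Neighbouring regions share chromatin, so these shares are over regions that are not all independent.

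By the same 1.5-fold rule, the ChIP comparison called 937 regions basal (4.05%) and 920 luminal (3.98%). Of the luminal input calls 21 were also luminal ChIP calls, 19.6% of the input calls and 2.28% of the ChIP calls. They included Ehf (187 basal and 239 luminal ChIP reads, log2 -0.59), Tmprss2 (161 and 218, -0.67), Arhgef38 (146 and 209, -0.75), Sbsn (121 and 169, -0.72) and Rab11fip1 (213 and 278, -0.62). Epcam (241 and 296, -0.53) and Kit (155 and 189, -0.52) lay on the same side below the threshold. The antisense gene Plet1os, named after its values were seen, had the lowest ChIP ratio of the shared calls (186 and 454 reads, -1.52), with 133 and 286 input reads. DNA counts cannot tell it from an overlapping partner gene.

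Of the basal input calls 19 were also basal ChIP calls, 11.6% of the input calls and 2.03% of the ChIP calls. Krt14 had 390 basal and 128 luminal ChIP reads, log2 1.37, Mir125b-1 420 and 156, 1.19, and Serpina3i 340 and 140, 1.05. Vmn1r71 (186 and 86, 0.88), Vmn1r76 (246 and 117, 0.84) and Fgf14 (248 and 134, 0.65) were among them as well. Spock3 (158 and 93, 0.53) lay on the same side and was not called, whereas Mir344e (155 and 156, -0.24) lay on the luminal side in ChIP. For Krt14 the difference between cell types was larger in ChIP than in input, 1.37 against 0.59, and for Krt5 1.72 against 0.47, although Krt5 was not called in input. Opposite calls were 4 on the basal side (AI597479, Mir133b, Mir500 and Vmn2r48), 2.44%, against 3.98% of all tested genes called luminal in ChIP. On the luminal side there was 1 (0.935%, against 4.05% of all called basal in ChIP), Ddit3, a stress-response factor gene. Ddit3 had 18 and 50 input reads and 34 and 7 ChIP reads.

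**Figure D5:**
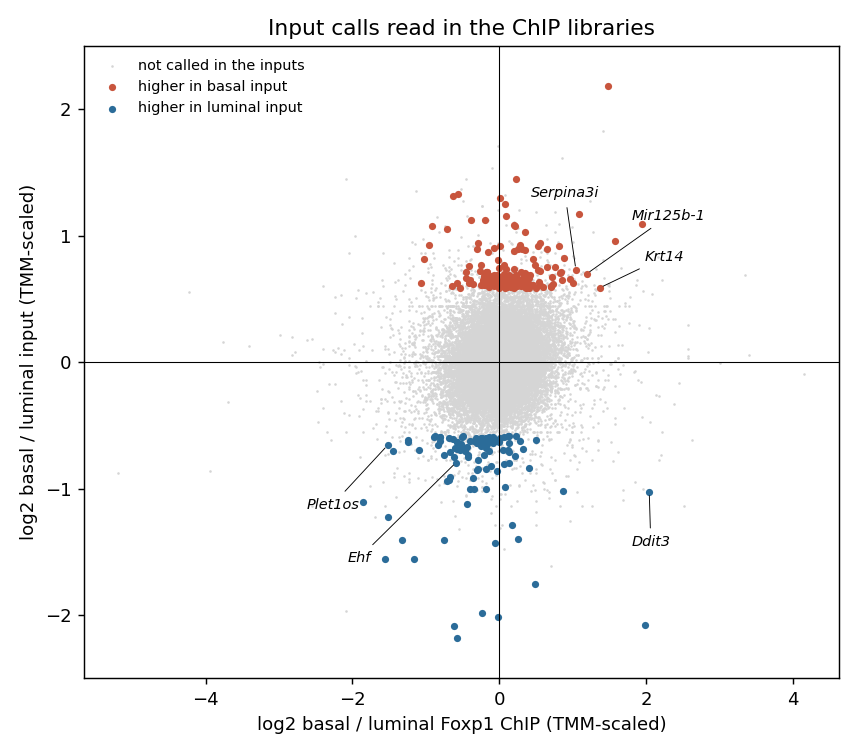
Each point is a gene region, with its log2 ratio of basal over luminal Foxp1 ChIP on the horizontal axis and of basal over luminal input on the vertical axis, coloured by the input call. Of the luminal input calls 84 of 107 lie left of 0 and of the basal input calls 104 of 164 lie right of 0, with Krt14 at 1.37 and Plet1os at -1.52 on the ChIP axis.

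The ChIP libraries also set the marker lists apart from the receptor families. Basal markers had a ChIP median of 0.46 with 33 of 33 above 0 and 14 called higher in basal ChIP (4.05% of all tested genes), where their input median was 0.17. Olfactory receptors had a ChIP median of 0.06 with 51 of 1108 called basal and 23 luminal, where their input median was 0.21, and hepatocyte genes 0.00 where their input median was 0.16. Luminal keratin and junction genes had -0.39 in ChIP and -0.31 in input, and luminal progenitor markers -0.25 and -0.24. In ChIP, 6 of 25 keratin and junction genes were above 0 and 7 were called luminal, against 3.98% of all tested genes. Of the 20 luminal progenitor markers, all below 0 in input, 6 were above 0 in ChIP and 1 was called luminal. The immediate-early genes had -0.00 in ChIP and -0.17 in input.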

How the data were processed

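DNA of 4 libraries was analysed: 1 input and 1 Foxp1 ChIP library from each of 2 cell types. Single-end reads had 75 to 85 bp, per the labels' protocols. The values deposited by the authors are raw counts of reads per gene, without normalization. The submitters' processing notes name featureCounts and build mm10. Not given in the sources used here are the aligner, the versions, the part of each gene counted and the handling of duplicate and multiply mapped reads. The counts held per sample were equal to the series table for 24548 of 24548 genes.

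Genes with at least 40 counts summed over the 4 libraries were tested, and TMM factors were computed on them (edgeR 4.0.16, R 4.3.3). Each ratio of scaled counts carries a 99% interval (Clopper-Pearson, exact, from both counts), and a call needs 1.5-fold and an interval that excludes 1. Since each group has 1 library, no model of the counts was fitted and p-values are absent. The procedure was tested on simulated data with counting error only, so that test does not cover the wider spread of the real ratios. The remaining steps ran in Python 3.11.15 (scipy 1.17.1, pandas 2.3.3, numpy 2.4.6, matplotlib 3.10.9).

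Positions (23104 tested genes), promoters and microRNAs came from RefSeq tables on GRCm38.p6. Each gene got the promoter start nearest to its annotated boundary, which was over 100 bp away for 3770 of 17432 genes; G and C content counts 300 bases, 250 before the start and 50 after.

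The members, the 15 lists by name and the 13 by symbol pattern were chosen with earlier results of these data known. The taste receptor list was added, the histone and microRNA patterns corrected and chromosome 18 left out of the composition set after values were seen. Named genes are the 15 calls per direction with the bound farthest from equality (predicted and clone-named genes left out), the highest and lowest 3 members of each list by name, and a fixed set of mammary and control genes; others are named as examples of a count. The alternatives were other scalings (with DESeq2 1.42.0 size factors among them), filters, thresholds and autosomal genes only. Not every gene that this rule yields is described.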

Additional observations from a re-analysis of the deposited data

How the results depend on the processing

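No paired analysis was possible because each group has 1 library, and for the same reason no library could be left out. Total counts, TMM on the inputs alone, DESeq2 size factors, no filter on low counts, 40 counts over the inputs, a widened interval and autosomal genes only kept the counts of calls (164 basal and 107 luminal) within 1.5 times, at 133 to 166 and 76 to 118. With DESeq2 size factors Krt14 (log2 0.58) was no longer called and Cited4 (-0.59) was. Requiring 200 counts over the inputs left 61 luminal calls and 120 basal calls. A 2-fold threshold left 16 basal and 21 luminal calls, and a 95% interval gave 261 and 191. Centring on the olfactory receptor genes gave 13 basal and 899 luminal calls and moved every ratio down alike, so the basal marker median turned to -0.042, the luminal progenitor median stood at -0.46 and the mature luminal median at -0.37. The share of basal calls above 0 in ChIP ran from 57.5 to 69.2% over the alternatives, and that of luminal calls below 0 from 70.2 to 83.6%. The 69.2% came from the olfactory centring and rests on 13 basal calls. These shares were not computed for autosomal genes only. At 188 and 185 reads, as in Krt5, the interval of the ratio runs from 1.05 to 1.82 around 1.38, so a much smaller difference was not detectable at that depth. The ratio spread over counting error was 1.31 among olfactory receptors and 1.91 among all tested genes; what share of it comes from preparation was not tested.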

Other observations

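Of 162 mapped basal calls, 53 (32.7%) had another basal call within 1 Mb, where 15.4% of all 23103 mapped genes had one, and 13 (8.02%) had a luminal call there, against 16.8% of all. Of 107 luminal calls, 28 (26.2%) had another luminal call within 1 Mb and 12 (11.2%) a basal call. Without olfactory, vomeronasal and defensin genes, 25 of 123 basal calls (20.3%) had another basal call within 1 Mb, against 10.7% of all 21659 genes. Neighbouring counted regions may overlap, and their part in these shares was not tested. Grb7 (121 and 248 reads, log2 -0.59) and Pgap3 (115 and 237, log2 -0.60), named after their values were seen, lie on chromosome 11 between 98388672 and 98455373. The nearest tested gene within 100 kb of a basal call had a median log2 ratio of 0.21, with 96 of 130 above 0, and that of a luminal call -0.10, with 67 of 100 below 0. Of all tested genes, 49.9% were above 0. Receptor and defensin genes were not set aside for these neighbours, and olfactory receptors as a family had a median of 0.21, with 87.6% above 0.

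With at most 7 other genes within 500 kb on each side, 65 of 5133 genes were called basal (1.27%, against 0.709% of all tested genes) and 13 luminal (0.253%, against 0.463%). With 32 to 73 genes there, 25 of 4473 were called basal (0.559%) and 37 luminal (0.827%). Without olfactory, vomeronasal and defensin genes, the sparse class had 62 basal and 13 luminal calls of 5089, and the dense class (30 to 73 genes) 11 and 37 of 4262, with median log2 ratios of 0.05 and -0.07.

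By chromosome, the X had the highest median log2 ratio, 0.09 over 963 genes, with 10 basal calls (1.04%, against 0.709% of all tested genes) and 1 luminal call, and chromosome 11 the lowest, -0.05 over 1751 genes. The share of basal calls was higher on chromosome 14 (1.12%) and chromosome 1 (1.14%). On chromosome 7 it was 1.54%, 31 of 2018 genes, 348 of them receptor or defensin genes. The noncoding gene Xist had 218 basal and 258 luminal reads (log2 0.20). The multi-copy ribosomal repeat Rn45s had 4900 and 5586 reads (log2 0.26, 99% interval 0.18 to 0.33).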
